A study of Mus musculus with 6 samples.

Results

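Olfr872 and the olfactory receptor genes numbered around it were followed in the cardiac ventricles of mice with extra miR-499. The set was chosen by symbol, as every probe set whose only gene symbol on the array platform lies between Olfr830 and Olfr929 by number, and its centre, Olfr872, was chosen on its difference between the groups described here. The rule gave 66 probe sets of 66 genes, out of 1023 olfactory receptor probe sets and 19938 named genes on the array. Of the 100 numbers in the range, 34 had no such probe set. The groups were 3 TG mice, which carry a miR-499 transgene driven by the alpha-myosin heavy chain (Myh6) promoter active in cardiomyocytes, and 3 wild-type (WT) littermates, all at postnatal day 17. The TG mice are of the lower-expressing line, TG-17, which is 1 transgenic line in FVB/NCrl mice, and their sex is not stated in the labels. RNA of each ventricle was measured on 1 Affymetrix mouse gene ST array, and values are log2 intensities summarised per probe set by RMA, so that a difference of 1 is a 2-fold change.

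Olfactory receptors are G protein-coupled receptors that bind odorants on the cilia of sensory neurons in the nose. They form the largest gene family of the mouse, lie in tandem clusters on many chromosomes, and are chosen by each sensory neuron as a single gene from a single allele. Outside the nose most of them are silent, although a few have known roles in other tissues. The MOR number used below is a naming system that groups mouse receptors into families by the similarity of their proteins.

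All 66 genes lie on chromosome 9 in the RefSeq annotation of GRCm38.p6, which was used for gene order. A gap of more than 1000000 bases parts them into a group of 28 genes, Olfr830 to Olfr873, and a group of 38 genes, Olfr874 to Olfr926. RefSeq lists 64 as protein coding, Olfr908 as a transcribed pseudogene and Olfr915 as a miscellaneous RNA. They belong to 23 MOR families, 17 of which hold at least 2 of the genes. Olfr872 belongs to MOR145, together with Olfr866, Olfr868, Olfr869 and Olfr873. A further 3 probe sets carry the symbols of several genes, among them genes of this range, and were not counted. Olfr884 and Olfr885 were covered only by these. Their differences between TG and WT were 0.058 (SE 0.054), 0.073 (SE 0.052) and -0.18 (SE 0.15).

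The stretches around the RefSeq start of Olfr872 and of 2 other receptors are shown so that they can be compared. Olfr869 is of the same MOR family, and Olfr39 is the receptor that follows Olfr872 on the chromosome. Each runs from 250 bases before to 50 bases after the start, 5′ to 3′, from RefSeq GRCm38.p6, the C57BL/6J reference and not the FVB/NCrl strain of these mice. Olfr872 is at chr9:20236912-20237211, Olfr869 at chr9:20128870-20129169 and Olfr39 at chr9:20282101-20282400, all on the plus strand. Capitals mark TAATTA, the core that many homeodomain factors bind.
Olfr872: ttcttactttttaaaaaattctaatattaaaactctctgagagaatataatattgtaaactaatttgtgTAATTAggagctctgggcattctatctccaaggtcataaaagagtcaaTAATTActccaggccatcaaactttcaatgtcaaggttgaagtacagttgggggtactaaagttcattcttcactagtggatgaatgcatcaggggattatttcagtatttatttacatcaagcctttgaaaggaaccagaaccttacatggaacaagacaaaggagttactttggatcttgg
Olfr869: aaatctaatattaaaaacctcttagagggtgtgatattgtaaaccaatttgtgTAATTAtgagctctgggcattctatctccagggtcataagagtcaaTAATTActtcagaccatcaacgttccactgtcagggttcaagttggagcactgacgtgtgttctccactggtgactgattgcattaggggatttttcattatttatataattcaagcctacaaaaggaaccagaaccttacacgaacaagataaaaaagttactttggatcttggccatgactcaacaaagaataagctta
Olfr39: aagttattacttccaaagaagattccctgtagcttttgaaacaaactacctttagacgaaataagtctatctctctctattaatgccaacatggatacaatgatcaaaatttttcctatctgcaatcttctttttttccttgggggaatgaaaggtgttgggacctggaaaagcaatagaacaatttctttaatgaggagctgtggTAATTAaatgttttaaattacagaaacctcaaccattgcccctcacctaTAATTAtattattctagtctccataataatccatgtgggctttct
The Olfr872 and Olfr869 windows aligned along nearly their whole length, with 231 identical bases in 284 alignment columns (81.3%), 43 mismatches and 10 gapped columns. The alignment score of 298 was the highest among the windows of olfactory receptors, and the second, that of Olfr102, was 35. Olfr39 scored 29, and the other MOR145 genes with a window, Olfr868 and Olfr866, scored 23 and 22. The close likeness of this stretch was thus seen for Olfr869 and not in the windows of Olfr868 or Olfr866, and Olfr873 was not analysed here for it. The windows are set by the RefSeq starts, so likeness that lies outside them was not looked for. TAATTA, which reads the same on both strands, was found with its first base at -181 and -133 from the start in Olfr872, at -197 and -151 in Olfr869, and at -44 and 5 in Olfr39, the start itself being 0. It was present in 14 of the 55 windows of the genes described here, in 18.6% of 944 olfactory receptor windows and in 5.29% of all 32851 windows. AGATAA, a core bound by GATA factors such as those of the heart, and TATAAA, the TATA box, were searched on both strands and had no match in the Olfr872 window. AGATAA was in 11.2% of all windows and 28.0% of olfactory receptor windows, and TATAAA in 13.6% and 41.2%. Olfr869 had 1 AGATAA and 1 TATAAA, which did not overlap its TAATTA, and Olfr39 had neither. These matches describe letters in the reference and not binding.

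Olfr872 was higher in every TG ventricle than in any WT ventricle. Its log2 values were 4.47, 5.17 and 4.87 in the TG mice, against 3.99, 3.87 and 3.84 in the WT mice. The groups were parted by 0.48 between the lowest TG and the highest WT mouse, and the WT values lay within 0.14 of each other while the TG values spread over 0.69. The means were 4.84 ± 0.35 in TG and 3.90 ± 0.077 in WT (SD, n = 3 each), a difference of 0.93 (SE 0.17), or 1.91-fold on the scale of these values. The values hold no score of detection above background, and both means lie among the low signals described below. The fold in transcript is therefore not known, nor is it shown that transcript was present in either group. Because the gene was chosen for this difference, it is given with no p-value, and the calls below describe it and do not test it. At the cut-off used here, a limma log odds of differential expression (B) above 0 across all 35556 probe sets, Olfr872 was not called (B = -0.53). It was called without TG replicate 1 (B = 1.21), with listed probe sets only (B = 0.68) and with an assumed share of changes of 0.05 in place of 0.01 (B = 0.90). In tissue RNA, more cells that express a gene cannot be told apart from more RNA per cell.

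**Figure D1:**
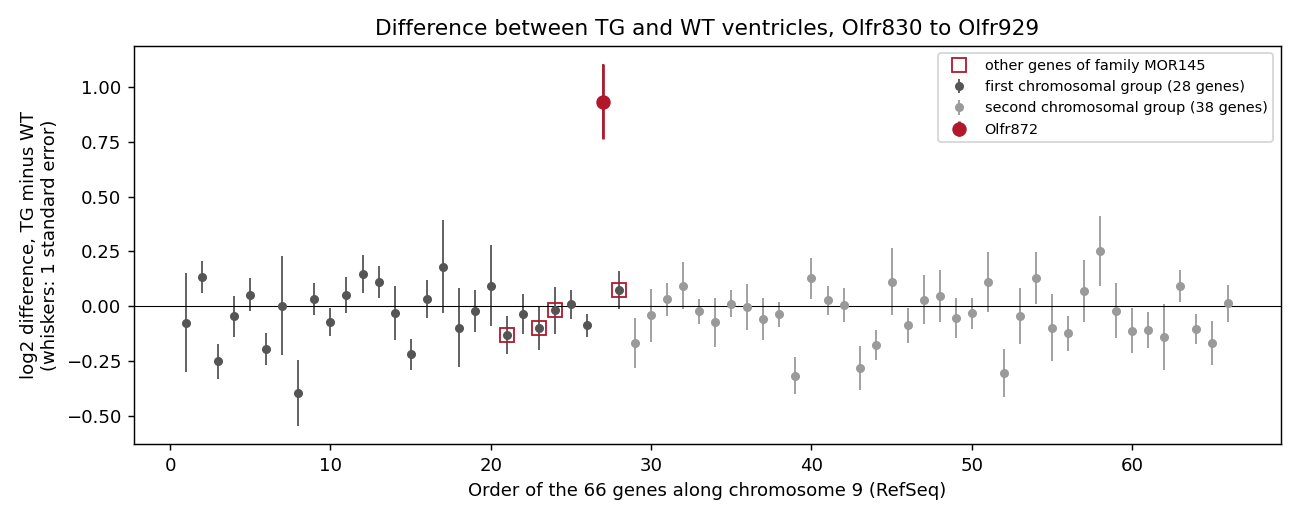
Difference in log2 value between TG and WT ventricles (y axis, whiskers 1 standard error, n = 3 mice each) for the 66 genes in their order along chromosome 9 (x axis), with the 2 chromosomal groups in dark and light gray and the other MOR145 genes as open squares. Olfr872 is at 0.93 and the other genes lie between -0.40 and 0.25.

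Set against its relatives, Olfr872 had the largest difference of the 66 genes. The next, Olfr917, was at 0.25 (SE 0.16), so that 0.68 lay between them. The differences of the other 65 genes had an SD of 0.13, 58 of them were within 0.2 of zero, and 3 were beyond 0.3 in size, all lower in TG. In a wider frame Olfr872 ranked 1 of 1023 olfactory receptor probe sets, with no other as far from zero in either direction, 5 of 23410 probe sets that carry a gene name and 46 of all 35556. These ranks describe the value on which the gene was picked and are not a test of it.

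The other genes of its own family were near level between the groups. Olfr869, the gene with the similar start region, had 3.93, 4.21 and 4.13 in TG and 4.04, 4.28 and 4.01 in WT, a difference of -0.018 (SE 0.11). Olfr873 had 4.93, 4.93 and 5.11 in TG and 4.91, 4.80 and 5.04 in WT (0.074, SE 0.086). In each of these the TG and WT mice overlapped. Olfr868 had 3.32, 3.28 and 3.54 in TG and 3.59, 3.34 and 3.50 in WT (-0.099, SE 0.10), and Olfr866 had 4.26, 4.20 and 4.30 in TG and 4.53, 4.23 and 4.40 in WT (-0.13, SE 0.086). Across the family the 4 relatives of Olfr872 therefore lay between -0.13 and 0.074.

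The genes that lie next to Olfr872 were then read in order. Just before it, the MOR141 genes Olfr870 and Olfr871 differed little between the groups. Olfr870 had 4.61, 4.48 and 4.53 in TG and 4.53, 4.45 and 4.62 in WT (0.0083, SE 0.066). Olfr871 had 4.34, 4.25 and 4.30 in TG and 4.37, 4.43 and 4.35 in WT (-0.088, SE 0.053), lower in all TG mice but by less than 0.1. The next olfactory receptor after it is Olfr39, whose number falls outside the range and which was named for its position. Olfr39 had 5.92, 6.10 and 5.76 in TG and 5.56, 5.52 and 5.22 in WT, with no overlap between the groups. Its means were 5.93 ± 0.17 in TG and 5.43 ± 0.19 in WT (SD, n = 3 each), a difference of 0.49 (SE 0.13), which did not pass the test (B = -2.07, adjusted p = 0.234 by limma with Benjamini-Hochberg adjustment over all probe sets). By size and direction Olfr39 ranked 3 of the 1023 olfactory receptor probe sets, Olfr872 being the first. The receptor beyond Olfr873, Olfr18, was at -0.10 (SE 0.087). The nearest genes with a probe set that are no olfactory receptors were Muc16, a mucin, and Zfp317, a zinc finger gene, on the side before Olfr872, at -0.40 (SE 0.095, adjusted p = 0.229 by limma) and 0.22 (SE 0.11), and the zinc finger genes Zfp560 and Zfp266 on the side after it, at 0.027 and -0.022. None of these 4 was called at B above 0. Among the neighbours examined, TG mice all lay above WT mice for Olfr39 alone, as they did for Olfr872 and in 11.3% of all probe sets. They all lay below WT mice for Olfr871 and Muc16, as they did in 12.1% of all probe sets. With so few neighbours, nothing is read from these counts.

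**Figure D2:**
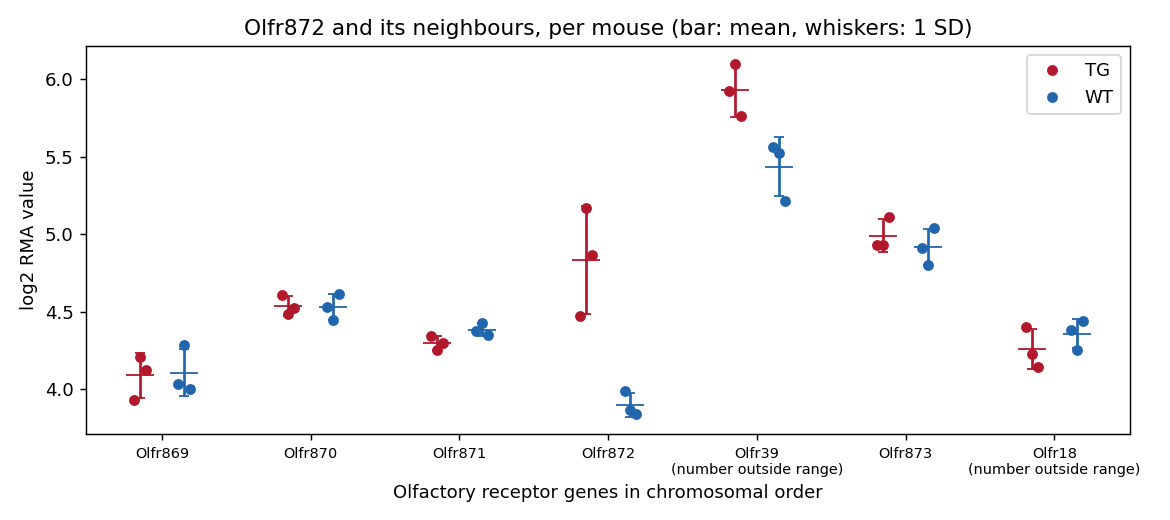
Log2 RMA value (y axis) of Olfr872 and the 3 olfactory receptor genes on either side of it in chromosomal order (x axis), each point 1 mouse, TG in red left of WT in blue, with the mean and 1 SD (n = 3 each). The TG and WT points are fully parted upward for Olfr872 and Olfr39, whereas those of Olfr869, Olfr870, Olfr873 and Olfr18 overlap.

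As a set, the 66 genes were nearly level between the groups. Their median difference was -0.027 (range -0.40 to 0.93), with 28 genes higher and 38 lower in TG. The median was -0.031 without Olfr872, -0.050 for the 957 other olfactory receptor probe sets and -0.014 for all probe sets. It was -0.019 in the chromosomal group that holds Olfr872 and -0.035 in the other. At B above 0, 0 of the 66 were called higher and 0 lower, where 0.155% of all probe sets were called higher and 0.211% lower. At an adjusted p under 0.05, 0 were called, against 0.00562% of all probe sets. At an unadjusted p under 0.05 in limma, 1 gene, Olfr872, was higher (1.52% of 66, where all probe sets gave 6.97%) and 8 were lower (12.1%, where all probe sets gave 8.5%). The TG and WT mice did not overlap for 2 genes that were higher, Olfr832 and Olfr872 (3.03%, 11.3% over all probe sets), and for 9 that were lower (13.6%, 12.1% over all probe sets). The members were picked with this contrast in view, so nothing is read from these shares.

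Beside Olfr872, the genes furthest above WT had differences of 0.13 to 0.25, close to the spread between mice. Olfr917 had 4.86, 4.34 and 4.62 in TG and 4.41, 4.53 and 4.12 in WT. Olfr832, the only other gene whose TG mice all lay above the WT mice, had 3.34, 3.33 and 3.54 in TG and 3.30, 3.22 and 3.28 in WT, a difference of 0.13 (SE 0.073) with the groups 0.028 apart. Olfr857, Olfr850 and Olfr913 were at 0.18 (SE 0.21), 0.15 (SE 0.087) and 0.13 (SE 0.12), and their groups overlapped. The gap between the groups in Olfr872, 0.48, had no near counterpart among the other 65 genes. Olfr872 was picked on its difference between the groups, so this is a description and not a test.

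The larger differences in the other direction were in Olfr845, Olfr890 and Olfr910. Olfr845, of MOR150, had 4.72, 4.79 and 4.99 in TG and 5.02, 5.13 and 5.55 in WT (-0.40, SE 0.15). Olfr890, of MOR162, had 3.41, 3.48 and 3.40 in TG and 3.69, 3.63 and 3.91 in WT (-0.32, SE 0.084). Olfr910, of MOR165, had 3.55, 3.54 and 3.19 in TG and 3.80, 3.69 and 3.70 in WT (-0.30, SE 0.11). In all of these the TG mice lay below the WT mice, although the closest mice of Olfr845 were nearly equal. Olfr895, Olfr834 and Olfr854 were at -0.28 (SE 0.10), -0.25 (SE 0.080) and -0.22 (SE 0.071), also without overlap. By family, the median difference was -0.22 over the 2 MOR150 genes (Olfr845 and Olfr835, the second at -0.047), -0.038 over the 7 MOR162 genes and -0.072 over the 8 MOR165 genes. The MOR168 family of Olfr917 had a median of 0.16 over 2 genes. These medians are descriptions, and no family was tested.

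At the ends of the number range the values gave no break. Just inside the low end Olfr830 was at -0.075 and Olfr832 at 0.13, and just outside it Olfr829 was at -0.19 and Olfr828 at 0.044. Just inside the high end Olfr926 was at 0.014 and Olfr924 at -0.17, and just outside it Olfr930 was at 0.14 and Olfr933 at 0.056.

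The levels of these genes in ventricle were low on the scale of the array. Their means over the 6 mice ran from 3.25 to 5.86 with a median of 4.12, which stood at the 7.14th percentile of all probe sets, and 9 of the 66 reached 5. Group medians were 4.08 in TG and 4.12 in WT, and the median over the genes in each mouse was 4.15, 4.04 and 4.13 in TG and 4.14, 4.19 and 4.03 in WT. The level did not part the groups. Other olfactory receptors had a median of 4.56 (range 2.99 to 9.11), with 304 of 957 probe sets reaching 5. The vomeronasal receptors, which sense pheromones, had a median of 4.13 over 172 probe sets, taste receptors 4.46 over 38 and trace amine receptors, which sense amines in the nose, 4.75 over 7. The median of all probe sets was 6.91, and that of 10 ventricular cardiomyocyte genes, among them Myh6, Myl2 and Tnnt2, was 13.57. As a second view of low signal, Y-linked Eif2s3y, Uty and Kdm5d averaged 3.59, 3.92 and 4.94 in TG and 3.53, 3.96 and 4.97 in WT, while Xist was 11.15 to 11.31 in all 6 mice. By Xist and the Y-linked genes, all 6 mice read as female. These Y-linked values lay in the same range as the receptors. A level on this scale depends on the probes as well as on the RNA, so no order between genes is drawn from it and a value of 4 is not a measure of transcript number.

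**Figure D3:**
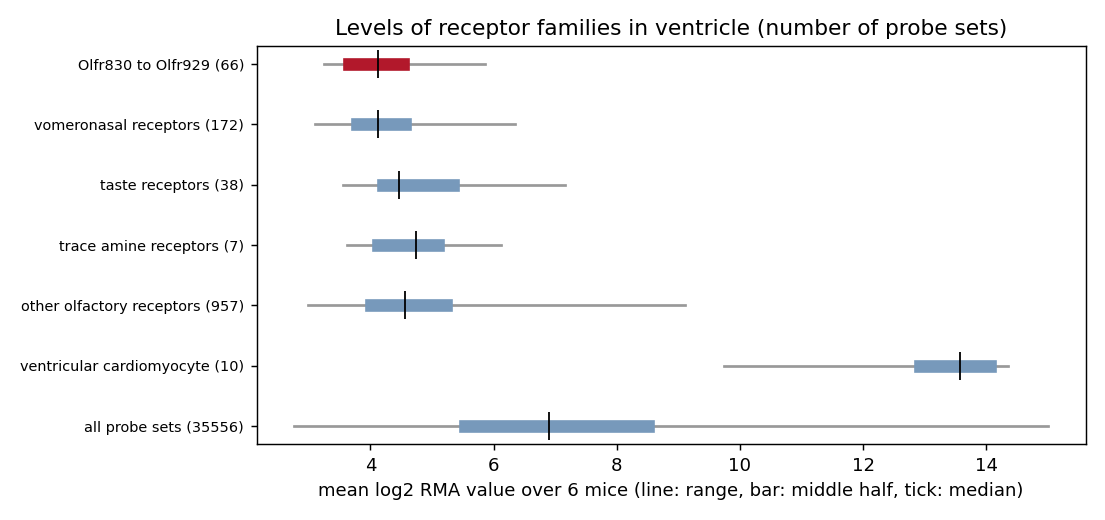
Mean log2 RMA value over the 6 mice (x axis) for probe sets of receptor families and comparison sets (y axis, number of probe sets in brackets), with the line as the range, the bar between the quartiles and the tick as the median. The genes from Olfr830 to Olfr929 have a median of 4.12, beside 4.13 for vomeronasal receptors and 6.91 for all probe sets.

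Within this range the probe sets with the highest signal were Olfr898 (5.86), Olfr922 (5.46), Olfr874 (5.32) and Olfr914 (5.17), and those with the lowest were Olfr837 (3.25), Olfr836 (3.33), Olfr832 (3.33) and Olfr889 (3.35), as means over the 6 mice. Olfr898 had 5.84, 5.66 and 5.81 in TG and 6.01, 5.91 and 5.92 in WT, lower in every TG mouse than in any WT mouse. Olfr837 had 3.14, 3.08 and 3.24 in TG and 3.25, 3.45 and 3.34 in WT. The median over probe sets was 3.90 in the chromosomal group of Olfr872 and 4.24 in the group that starts at Olfr874, and with different probes in each no order is read from these.

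The spread between mice was small for most of the genes and larger for a few. The median SD was 0.12 in TG and 0.11 in WT. The largest within TG were those of Olfr830 (0.46), Olfr843 (0.44) and Olfr872 (0.35), and the largest within WT those of Olfr859 (0.34), Olfr857 (0.34) and Olfr921 (0.29). In Olfr830 and Olfr843 a single TG mouse was low. Olfr830 had 4.53, 3.68 and 4.42 in TG and 4.41, 4.29 and 4.17 in WT, and Olfr843 had 3.94, 3.14 and 3.86 in TG and 3.66, 3.83 and 3.45 in WT. That mouse was the same in both genes, replicate 2 of TG, in which Olfr872 had its highest value, 5.17. Without it the difference of Olfr872 was 0.77.

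**Figure D4:**
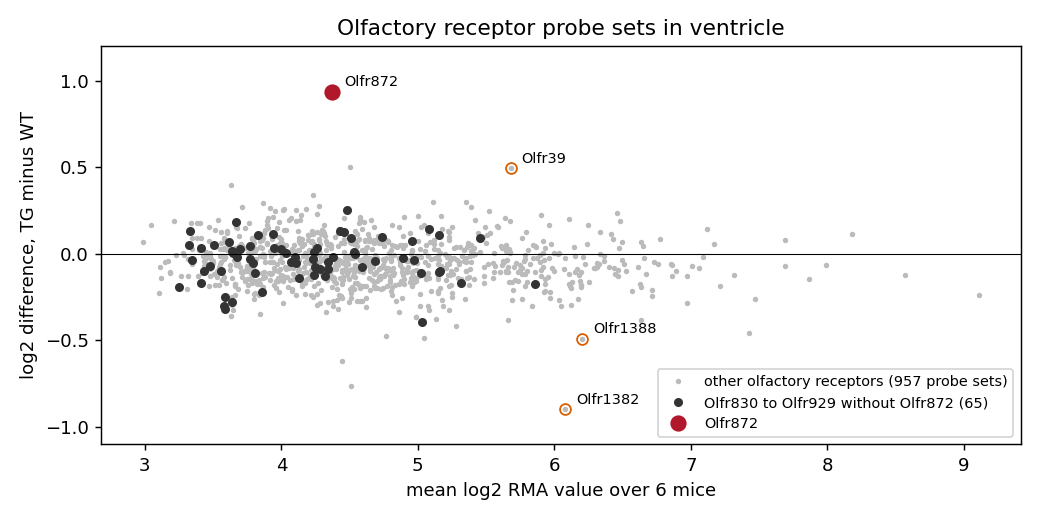
Difference in log2 value between TG and WT (y axis) against the mean log2 RMA value over the 6 mice (x axis) for 1023 olfactory receptor probe sets, with the genes from Olfr830 to Olfr929 in dark, Olfr872 in red and 957 other receptors in gray. Olfr872 lies at 0.93, above every other receptor, and Olfr39, Olfr1388 and Olfr1382 are ringed.

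Among the 957 other olfactory receptor probe sets, 0 were called higher at B above 0 and 1 lower (0.104%). Over all probe sets 0.155% were called higher and 0.211% lower. Olfr1388 fell to 5.94, 5.89 and 6.04 in TG, against 6.50, 6.53 and 6.32 in WT (-0.49, SE 0.078, B = 0.11), although its adjusted p was 0.205 by limma. The receptor furthest below WT, Olfr1382, was named after its values were seen and was at -0.90 (SE 0.35) with overlapping mice. Olfactory receptors with known roles outside the nose were also read. Olfr16, known from sperm, was at -0.071 (SE 0.075), Olfr544 at -0.37 (SE 0.14) and Olfr558 at -0.15 (SE 0.098), with 0 of 3 called. The TG mice of Olfr544 all lay below its WT mice, as in 12.1% of all probe sets. Its p before adjustment was 0.037 by limma (adjusted p = 0.302). The mice of Olfr16 and Olfr558 overlapped.

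The genes that work with olfactory receptors in sensory neurons gave no call. Of 18 olfactory signalling genes (21 probe sets), 0 had B above 0, while limma gave 2 probe sets that were higher and 2 that were lower at an unadjusted p under 0.05, where 6.97% and 8.5% of all probe sets were. Gnal, the G protein subunit that couples the receptors, averaged 5.13 in TG and 5.15 in WT. Adcy3, the adenylyl cyclase it drives, was at 0.11 (SE 0.062), Cnga2, a subunit of the cyclic nucleotide-gated channel, at -0.053 (SE 0.089), and Omp, the marker of mature olfactory neurons, averaged 7.03 in TG and 7.16 in WT. The larger differences were those of Pde1c, a phosphodiesterase, at 0.30 (SE 0.052, B = -0.30), and Slc24a4, the exchanger that clears calcium, at -0.35 (SE 0.10). Reep1 was at -0.25 (SE 0.0675), and Cnga4, of the same channel as Cnga2, at 0.21 (SE 0.084). The TG and WT mice did not overlap for 3 probe sets that were higher (Pde1c, Cnga4 and Adcy3) and 2 that were lower (Slc24a4 and Reep1). Over all probe sets 11.3% and 12.1% did not overlap. The closest mice of Cnga4 were nearly equal. Of 13 regulators of receptor choice and neuron formation, B was above 0 for 0, where 0.155% of all probe sets were called higher and 0.211% lower. A p under 0.05 before adjustment in limma was seen for 0. The TG and WT mice did not overlap for 1 that was higher, Lbr at 0.13 (SE 0.060), and 4 that were lower, where 11.3% and 12.1% of all probe sets did not. The 4 were Neurog1 at -0.23 (SE 0.11), Atf5 at -0.13 (SE 0.067), Ebf4 at -0.12 (SE 0.050) and Kdm1a at -0.061 (SE 0.048). Lhx2, a homeodomain factor needed for receptor expression, was at -0.15 (SE 0.078), Ebf1 at 0.0053 (SE 0.050), and Ldb1, which joins enhancers bound by Lhx2, at -0.029 (SE 0.059). The median level over the 6 mice was 8.21 for these regulators and 7.1 for the signalling probe sets, beside 6.91 for all probe sets. Levels ran from 4.37 to 10.13 in the regulators and from 4.64 to 11.71 in the signalling probe sets. Neither list is read as a mark of olfactory neurons in ventricle. The 4 supporting cell and gland genes found (Cyp2g1, Obp1a, Obp2a and Muc5b) and the 2 blood genes found (Alas2 and Slc4a1) had 0 calls. Group means ran from 4.51 to 6.14 in TG and 4.51 to 6.21 in WT for the supporting cell and gland genes, and from 7.56 to 9.47 in TG and 7.70 to 9.52 in WT for the blood genes.

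The arrays and labels were checked on the same values. Mir499, the gene of the transgene, was 9.31, 9.33 and 8.87 in TG and 5.48, 5.34 and 5.68 in WT (adjusted p = 0.00772 by limma). Its mature strand is shown because it is what the groups were made to differ in, with bases 2 to 8, the seed, in capitals (RefSeq GRCm38.p6, chr2:155622893-155622913, plus strand).
mmu-miR-499-5p: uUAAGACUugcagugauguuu
The array medians were 6.89 to 6.91 in TG and 6.94 to 6.95 in WT, and Pearson's r between arrays, over probe sets, was 0.992 to 0.994 within TG, 0.992 to 0.993 within WT and 0.990 to 0.992 between the groups. The 10 ventricular cardiomyocyte genes were at 9.73 to 14.34 in TG and 9.77 to 14.35 in WT, with 0 called. Of 4 atrial cardiomyocyte genes, 2 were called lower in TG, Myl4 (-0.66, SE 0.10, B = 0.21) and Myl7 (-0.64, SE 0.097, B = 0.36). All 4 had TG mice below WT mice, with list levels of 6.17 to 11.05 in TG and 6.49 to 11.27 in WT. Over all probe sets 0.211% were called lower, and 12.1% had all TG mice below the WT mice. The part of these atrial genes in the differences of the receptors was not tested.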

How the data were processed

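RNA from the ventricles of 3 TG-17 mice and 3 WT littermates was hybridised to arrays, 1 for each animal. The log2 values deposited by the authors are summaries of each probe set, and the submitters' processing notes name RMA, which subtracts background, brings the arrays to a common distribution and combines probes. The RMA version was not given in the sources read. No column was left out, and dim probe sets were kept. Precision is limited by the number of arrays.

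Groups came from the sample labels, and the line and age from the paper. Probe sets were named through the platform annotation, with symbols, MOR numbers and gene order from RefSeq (GRCm38.p6). TG was compared with WT in limma 3.58.1 (R 4.3.3; lmFit and eBayes) over all 35556 probe sets, with Benjamini-Hochberg adjustment and B computed with 0.01 as the assumed share of changes. The script was tested on simulated data. Start windows were found for 55 of the 66 genes and aligned locally in Biopython 1.88 (match 2, mismatch -3, gap opening -5, gap extension -2). The planned protein identity was not analysed here, and MOR families, chosen after the data were seen, stand in for it.

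The members, lists and tests were chosen with earlier results of these data known. Genes were named by a rule: Olfr872 and Mir499, the 6 largest differences in each direction, the 4 highest and 4 lowest levels, the neighbours of Olfr872, the 3 largest SDs in each group, calls at B above 0 and listed genes. Olfr102, Olfr835, Olfr908, Olfr915, Olfr1382 and the genes at the ends of the number range are named outside it. Alternatives were a filter at a mean of 5, listed probe sets only, median centring, array weights, robust moderation, an intensity trend, a second quantile normalization, an assumed share of 0.05, updated symbols, 1 probe set per gene, the replicate number as a block and leaving out each mouse.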

Additional observations from a re-analysis of the deposited data

How the results depend on the processing

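Olfr872 ranked 1 of the 66 genes in the 11 alternatives in which its rank was computed, with a difference of 0.77 (without TG replicate 2) to 1.12 (without TG replicate 1) when a mouse was left out, 0.99 with median centring, 0.95 with a second quantile normalization and 0.98 with array weights. Whether Olfr872 passed B above 0 varied with the setting, which describes a gene picked on this difference and does not test it. It became the 1 gene at B above 0 with an assumed share of 0.05 (B = 0.90), with listed probe sets only (B = 0.68) and without TG replicate 1 (B = 1.21), so that leaving out a mouse gave 0 to 1 genes. In the other alternatives, intensity trend and robust moderation among them, 0 were called, and at an adjusted p under 0.05 limma called 0 in every one of the 14 alternatives run, leaving out a mouse included.

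The median difference over the 66 genes, -0.027, was -0.056 to 0.0089 when a mouse was left out (the highest without TG replicate 2), 0.024 with median centring and -0.0061 with a second quantile normalization, so its sign is not settled. The median level was 4.11 to 4.15 when a mouse was left out. With probe sets of a mean under 5 removed, 9 of the genes remained, with a median difference of -0.10 and a median level of 5.16, and Olfr872 was among those removed.

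Mice of the same replicate number did not deviate together (r = 0.024, -0.00044 and 0.057 across probe sets), so no pairing by number was seen. Such correlations cannot exclude a litter or batch shared by number. With the replicate number as a block, Olfr872 was at 0.93 with B = -1.49, rank 1, the median difference was -0.027, and 0 genes were called at B above 0 and 0 at an adjusted p under 0.05.

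With 3 mice a group, standard errors reached 0.23 (Olfr843), and the values used hold no score of detection above background.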
